A study of Mus musculus with 37 samples.

Results

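The epidermal growth factor receptor gene Egfr, 6 genes of its ligands (Areg, Ereg, Hbegf, Btc, Tgfa and Egf) and Errfi1, the gene of an inhibitor that binds the receptor, were followed through 37 mouse lung libraries. These 8 genes, of 24421 symbols in the count table, were chosen by symbol, from earlier results of these data across the 6 groups. Differences of the 8 genes between groups are therefore given as descriptions, with fold changes and standard errors (SE) but without p-values. All 8 passed the filter on low counts, as did 16977 genes in all.

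The mice were C57BL/6, with 1 library per mouse, and received 0.75 Gy of radiation or a mock exposure at 0 Gy. The groups were silicon (silicon ions of 300 MeV per nucleon, 7 mice, 3 male and 4 female), GCR (a 5-ion mixture that simulates galactic cosmic radiation, 7 mice, 3 male and 4 female), gamma (gamma rays of caesium, 5 mice, 3 male and 2 female), silicon + NR (the same ions with 12 mM nicotinamide riboside, NR, a precursor of the cofactor NAD; 6 mice, 4 male and 2 female), mock + NR (mock exposure with 12 mM NR, 5 mice, 4 male and 1 female) and mock (no radiation and no NR, 7 mice, 5 male and 2 female). Neither ages nor the time between exposure and dissection are stated by the labels used here. The labels do not say whether mice of a group shared a cage or a day, so the p-values below measure the spread between these mice.

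Epidermal growth factor receptor is a receptor tyrosine kinase. Its ligands are made as membrane-bound precursors, which proteases such as ADAM17 cut to release the soluble growth factor, and the bound receptor signals through adaptors and the RAS and ERK kinase cascade. ERK activity in turn switches on genes that include ligands, transcription factors and feedback inhibitors. In lung this signalling is known for epithelial repair after injury, and amphiregulin, the product of Areg, is made by both epithelial and immune cells.

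Libraries differed in the tissue they held, and this touches several of the 8 genes. Total counts ran from 9485197 to 66381526, with a median of 28476462. Acta1, the actin of skeletal muscle, exceeded 1000 CPM (counts scaled to a library total of 1000000) in 13 libraries, of which 0 were among the 12 GCR and gamma libraries. The summed level of 12 skeletal muscle markers, all detected in each group, ran from 109 to 86623 CPM in silicon, 40.6 to 116 in GCR, 25.3 to 156 in gamma, 46.2 to 59086 in silicon + NR, 22.9 to 61917 in mock + NR and 26.6 to 47442 in mock libraries. The 14 squamous epithelium markers averaged 1384 ± 864 CPM in silicon, 29.4 ± 34.2 in GCR, 47.8 ± 42.9 in gamma, 1560 ± 2433 in silicon + NR, 557 ± 1038 in mock + NR and 952 ± 1004 in mock libraries (SD), with Krt6b at 0 in gamma. The ribosomal RNA precursor Rn45s exceeded 100000 CPM in 4 libraries, 3 of GCR and 1 of mock. In whole lung tissue, fewer cells of a type and less RNA per cell cannot be told apart. The lung epithelial markers were present in every group: 7 club cell markers summed to means of 122597 to 232312 CPM.

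Per length of exon, Errfi1 was the most abundant of the 8 transcripts and Ereg the least. Over all libraries the mean level was 28.2 CPM per kilobase for Errfi1, 7.65 for Hbegf, 7.59 for Areg, 2.43 for Btc, 2.12 for Tgfa, 1.38 for Egf, 1.37 for Egfr and 0.15 for Ereg. The median for Egf was only 0.21 CPM per kilobase, because 13 libraries carried most of it. From the lowest to the highest library Egfr varied 3.50-fold and Tgfa 5.45-fold, while Areg varied 23.7-fold and Egf 1049-fold. By fitted fold change the 8 genes did not move together in any comparison with mock: each comparison had genes on both sides of 0.

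**Figure D1:**
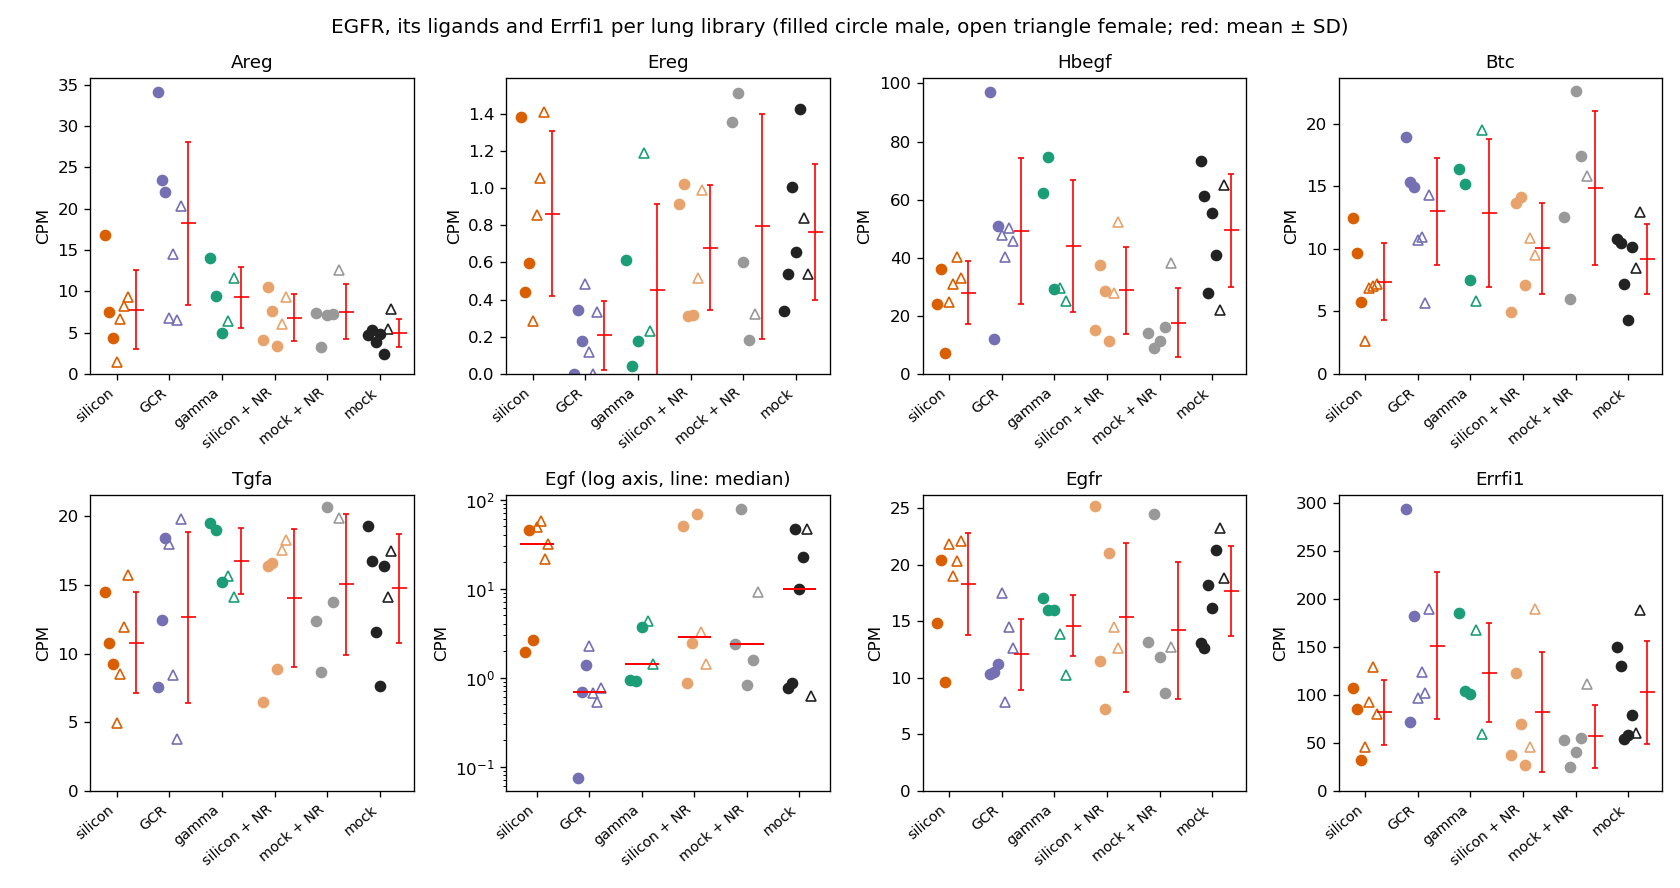
CPM of the 8 genes in each of the 37 libraries, by group, with males as filled circles and females as open triangles and with the group mean ± SD in red (for Egf, on a log axis, the median). Areg reaches 34.1 CPM in GCR against at most 7.89 in mock, and Egf falls into libraries above 9 and below 5 CPM.

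Areg encodes amphiregulin, a ligand of lower affinity for the receptor. It lies on chromosome 5 at 91139599 to 91148432 (mm10, plus strand, a protein-coding gene), beside 2 further ligand genes, Ereg at 91074622 to 91093646 on the plus strand and Btc at 91357261 to 91402994 on the minus strand. The 250 bases before its start are shown with those of Errfi1, because these are the 2 of the 6 genes with a sequence window (8 windows) that hold the letters TGACGTCA, the cyclic AMP response element, in capitals. Sequences are from RefSeq on GRCm38.p6, plus strand, Areg at chr5:91139349-91139598 and the second Errfi1 start at chr4:150854820-150855069.
Areg: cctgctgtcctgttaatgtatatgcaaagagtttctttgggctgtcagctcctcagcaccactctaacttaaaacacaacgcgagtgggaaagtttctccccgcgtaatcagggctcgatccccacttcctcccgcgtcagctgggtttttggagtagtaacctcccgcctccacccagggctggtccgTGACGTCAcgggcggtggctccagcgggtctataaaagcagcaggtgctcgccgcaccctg
Errfi1: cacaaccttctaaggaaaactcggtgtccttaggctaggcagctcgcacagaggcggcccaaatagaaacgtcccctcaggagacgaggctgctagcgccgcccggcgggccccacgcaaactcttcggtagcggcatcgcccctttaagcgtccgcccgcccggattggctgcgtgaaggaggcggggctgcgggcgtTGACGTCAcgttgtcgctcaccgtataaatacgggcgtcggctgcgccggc
The first base of the element stands at position -61 in the Areg window and at -51 in the Errfi1 window, counted from the start site. The letters, searched on both strands, were in 1.55% of 32851 windows of all genes. TATAAA was found in the same 2 windows, and in 12.4% of all windows. The AP-1 letters TGANTCA were in 0 of the 8 windows, and in 6.75% of all windows. These are matches of letters and show no binding.

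Areg was the ligand with the highest fitted fold change in GCR lungs. In GCR libraries it was at 34.1, 23.4 and 21.9 CPM in the 3 males and at 6.73, 14.5, 6.54 and 20.3 CPM in the 4 females. In mock libraries it was at 4.71, 5.31, 3.82, 4.77 and 2.41 CPM in the 5 males and at 5.48 and 7.89 CPM in the 2 females. Of the 7 GCR libraries 5 lay above every mock library, and the other 2, both female, lay within the mock range. The means were 18.2 ± 9.83 CPM in GCR and 4.91 ± 1.68 CPM in mock libraries (SD, n = 7 each), a log2 fold change of 2.15 (SE 0.41).

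By mean, the other 4 groups lay between these. Areg averaged 7.76 ± 4.79 CPM in silicon (n = 7), 9.29 ± 3.68 in gamma (n = 5), 6.82 ± 2.85 in silicon + NR (n = 6) and 7.53 ± 3.32 in mock + NR libraries (n = 5). The highest libraries reached 16.8 CPM in silicon, 14.02 in gamma, 10.51 in silicon + NR and 12.6 in mock + NR, above the highest mock library. Against mock the log2 fold change was 0.70 (SE 0.40) in silicon, 0.92 (SE 0.43) in gamma and 0.67 (SE 0.43) in mock + NR, and all groups but GCR overlapped widely. In silicon + NR it was -0.18 (SE 0.45) against mock + NR and -0.20 (SE 0.41) against silicon.

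By edgeR's quasi-likelihood test adjusted over all genes tested, 2 of the 8 genes were called for GCR against mock, Areg upward and Egf downward, where 16.6% of all 16977 genes tested were called. Because the contrast was in view when the genes were chosen, nothing is read from this count. The Areg call was lost without the 13 libraries high in Acta1, at a log2 fold change of 1.91 (SE 0.53). It was also lost without the 4 high in Rn45s, at 2.27 (SE 0.48), and with squamous, muscle and Rn45s levels as covariates, at 1.47 (SE 0.48). In those 3 fits 0 genes in all were called for GCR. Egf was no longer called without GCR replicate 2 or without mock replicate 6. At an unadjusted p under 0.05 stood 5 of the 8 genes and 34.4% of all genes. DESeq2 called Ereg beside these 2 and 22.6% of all genes, and voom called Areg alone and 8.92% of all genes.

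The same test called 0 of the 8 genes in every other comparison of groups. All tested genes called were 0% for silicon against mock, 0.0295% for gamma against mock, 0% for silicon + NR against mock + NR, 0% for mock + NR against mock and 0% for silicon + NR against silicon. At an unadjusted p under 0.05 stood 1 of the 8 genes for silicon (12.9% of all genes), 2 for gamma (10%), 0 for silicon + NR against mock + NR (2.16%), 2 for mock + NR (16.9%) and 0 for silicon + NR against silicon (12.8%). DESeq2 called Hbegf in mock + NR against mock, with 3.48% of all genes, and none of the 8 in the others, with 2.5% of all genes for silicon, 1.53% for gamma, 0.00589% for silicon + NR against mock + NR and 2.08% for silicon + NR against silicon. Voom with sample quality weights called Hbegf in mock + NR, with 5.85% of all genes, and Egf and Egfr in silicon + NR against silicon, with 24.8%. It called none of the 8 in silicon (0.00589% of all genes), gamma (1.4%) or silicon + NR against mock + NR (0%).

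**Figure D2:**
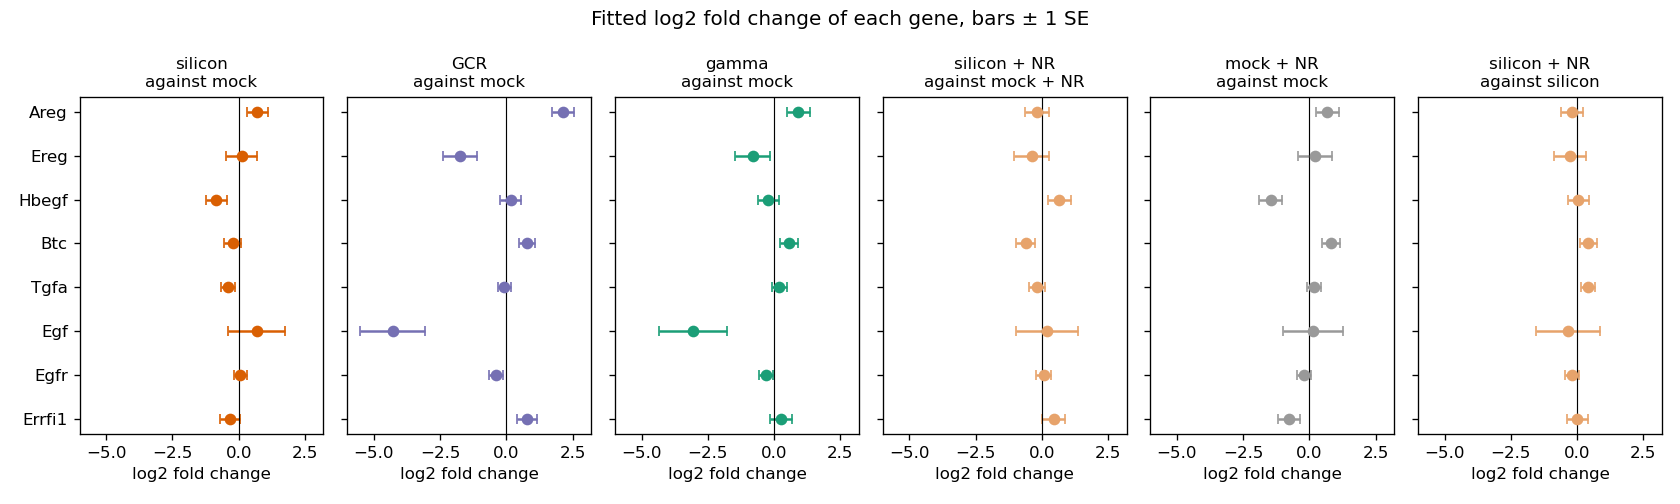
Fitted log2 fold change of each of the 8 genes in the 6 comparisons of groups, with bars of ± 1 SE. Areg stands at 2.15 and Egf at -4.29 in GCR against mock, Hbegf at -1.46 in mock + NR against mock, and the 3 comparisons of irradiated groups with mock share the same mock mice.

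Ereg encodes epiregulin, a ligand of broad receptor specificity, and stood at 0 to 49 counts per library. It had 0 counts in GCR replicates 1 and 6, which allows up to 0.113 and 0.316 CPM at their depths (3 counts each, counting error only). The other 5 GCR libraries had 0.12 to 0.48 CPM, and mock libraries had 0.34 to 1.43 CPM. Of the 7 GCR libraries 5 lay below every mock library, and the groups overlapped in the other 2. The means were 0.21 ± 0.18 CPM in GCR and 0.76 ± 0.36 CPM in mock libraries (SD, n = 7 each), at a log2 fold change of -1.74 (SE 0.64). Areg and its neighbour Ereg thus stood on opposite sides of mock in GCR lungs. The Ereg means were 0.86 ± 0.44 CPM in silicon, 0.45 ± 0.46 in gamma, 0.68 ± 0.34 in silicon + NR and 0.80 ± 0.61 in mock + NR libraries. Ereg had a mean of 0.85 ± 0.43 CPM in the 13 muscle-rich libraries and 0.50 ± 0.41 in the other 24. Those 24 hold every GCR and gamma library. Within groups the muscle-rich libraries were higher by mean in mock (0.98 against 0.47 CPM) and mock + NR (0.92 against 0.71). They were lower in silicon (0.81 against 0.99) and silicon + NR (0.62 against 0.71). The fold change of Ereg for GCR without the 13 was -1.07 (SE 0.84).

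Btc encodes betacellulin and, of the 8 genes, had the highest correlation with Areg within groups. It ran from 5.69 to 18.96 CPM in GCR libraries (median 14.3) and from 4.33 to 12.9 CPM in mock libraries (median 10.2), with 4 of 7 GCR libraries above every mock library. The means were 12.98 ± 4.27 CPM in GCR and 9.20 ± 2.81 CPM in mock libraries, at a log2 fold change of 0.78 (SE 0.32). It was 12.9 ± 5.90 CPM in gamma and 7.37 ± 3.08 in silicon libraries, at 0.55 (SE 0.34) and -0.22 (SE 0.31) against mock. In the NR groups it was 10.05 ± 3.62 CPM in silicon + NR and 14.9 ± 6.16 in mock + NR libraries, the highest mean of the 6 groups, at 0.81 (SE 0.34) for mock + NR against mock.

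Tgfa encodes transforming growth factor alpha and was the ligand with the narrowest range. Its means lay between 10.8 ± 3.67 CPM in silicon and 16.7 ± 2.40 CPM in gamma libraries, with 12.6 ± 6.25 in GCR, 14.02 ± 5.03 in silicon + NR, 15.05 ± 5.12 in mock + NR and 14.7 ± 3.99 in mock libraries. Against mock its log2 fold change was -0.41 (SE 0.26) in silicon, -0.07 (SE 0.26) in GCR and 0.19 (SE 0.28) in gamma, and every group overlapped with mock. Tgfa lies on chromosome 6 at 86195223 to 86275719 (plus strand).

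Hbegf encodes heparin-binding EGF-like growth factor and was lowest in mock + NR lungs. It was at 14.1, 8.87, 11.4, 16.0 and 38.1 CPM in mock + NR libraries, of which the last is the only female. In mock libraries it ran from 21.99 to 73.5 CPM, with a median of 55.3. Of the 5 mock + NR libraries 4 lay below every mock library. The means were 17.7 ± 11.7 CPM in mock + NR (n = 5) and 49.4 ± 19.5 CPM in mock libraries (n = 7), at a log2 fold change of -1.46 (SE 0.43).

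Silicon lungs were also lower in Hbegf than mock lungs by mean. It averaged 28.0 ± 10.9 CPM in silicon and 28.7 ± 14.98 CPM in silicon + NR libraries, at -0.84 (SE 0.39) for silicon against mock and 0.67 (SE 0.43) for silicon + NR against mock + NR. GCR libraries were at 11.9 to 97.2 CPM (mean 49.2 ± 25.1) and gamma libraries at 25.02 to 74.8 CPM (mean 44.2 ± 22.7), both around the mock level. The difference between the silicon effects with and without NR was 1.51 on the log2 scale (SE 0.58). Without the 13 muscle-rich libraries Hbegf stood at -2.23 (SE 0.55) for mock + NR and at -2.15 (SE 0.64) for silicon against mock, with 2 silicon libraries left. These had 7.08 and 23.96 CPM of Hbegf. The lower is among the 3 libraries rich in lymphoid tissue, with Ccl19 over 100 CPM.

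The 3 genes of most similar level over the 37 libraries, by Spearman's rho of log2 CPM, were Cttnbp2nl (0.951), Dpysl2 (0.949) and Thbd (0.944), the last encoding thrombomodulin, an anticoagulant protein of endothelium. Thbd averaged 118 ± 95.6 CPM in mock + NR and 398 ± 197 CPM in mock libraries. The summed endothelial markers ran from 295 to 1650 CPM in mock + NR and from 1087 to 4240 CPM in mock libraries, and the alveolar type 1 markers from 802 to 3010 CPM and from 1637 to 5815 CPM in the same groups. GCR libraries had 1754 ± 536 CPM of the endothelial markers and 278 ± 112 CPM of Thbd, against 2444 ± 1343 and 398 ± 197 CPM in mock libraries, with Hbegf level between these groups. The part of these cell types in the Hbegf values was not tested.

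**Figure D3:**
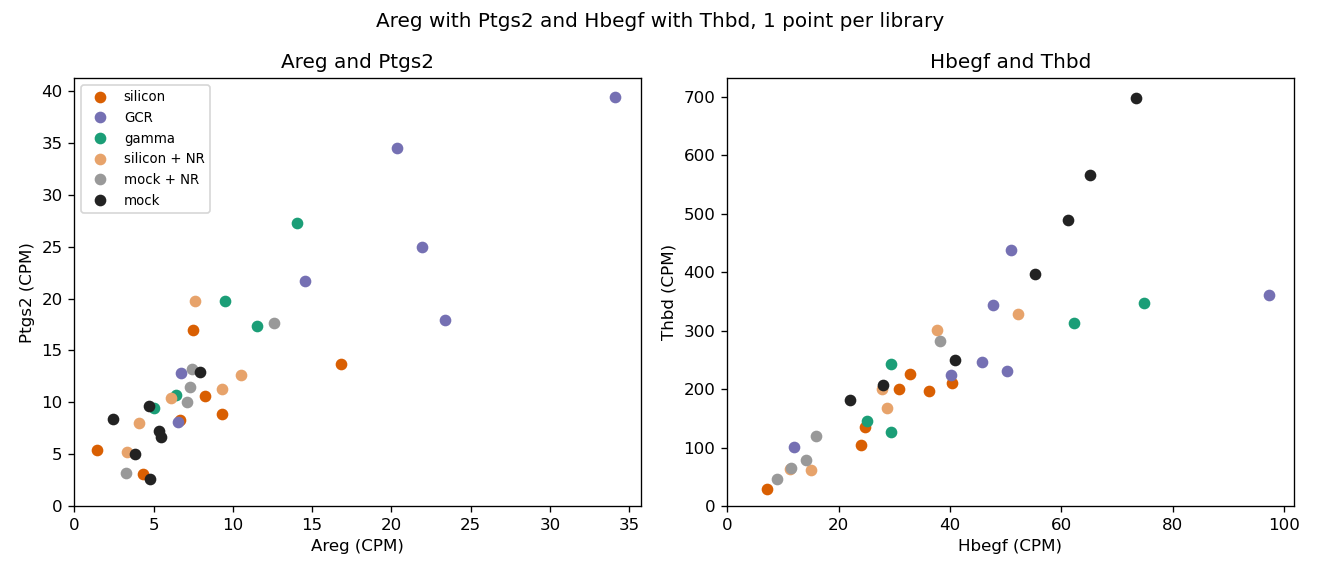
Level of Ptgs2 against that of Areg (left) and of Thbd against that of Hbegf (right), in CPM, with 1 point per library coloured by group. GCR libraries hold the highest Areg and Ptgs2, up to 34.1 and 39.4 CPM, and 4 of the 5 mock + NR libraries have 16.0 CPM of Hbegf or less, as have some silicon, GCR and silicon + NR libraries.

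Errfi1 encodes MIG6, a feedback inhibitor that binds the kinase domain of the receptor, and is itself induced by ERK signalling. It lies on chromosome 4 at 150853919 to 150868892 (plus strand). In GCR libraries it ran from 71.5 to 294 CPM (median 124) and in mock libraries from 53.7 to 188 CPM (median 78.6). The means were 151 ± 76.7 CPM in GCR, 123 ± 51.7 in gamma, 81.7 ± 33.5 in silicon, 81.9 ± 62.7 in silicon + NR, 57.0 ± 32.7 in mock + NR and 103 ± 53.4 in mock libraries. GCR stood at 0.79 (SE 0.38) and mock + NR at -0.76 (SE 0.42) against mock, and the groups overlapped. The mock libraries themselves were split: Errfi1 was 62.7 ± 10.9 CPM in the 4 muscle-rich ones and 156 ± 29.7 CPM in the other 3. By mean the muscle-rich libraries were also lower in silicon + NR (32.3 against 107 CPM). They were higher in silicon (86.6 against 69.5 CPM) and in mock + NR (67.9 against 49.7 CPM). Without the muscle-rich libraries GCR stood at 0.26 (SE 0.46) against mock. Errfi1 overlaps the antisense gene 1700045H11Rik and Egf overlaps 6330410L21Rik. The library kit does not mark strand, so reads from the stretch where such genes overlap cannot be told apart.

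Egf, the gene of epidermal growth factor, was high where skeletal muscle and squamous markers were high. It was at 9.12 to 78.9 CPM in the 13 libraries with Acta1 over 1000 CPM and at 0.08 to 4.38 CPM in the other 24, with no overlap. The 13 were 5 of 7 silicon, 0 of 7 GCR, 0 of 5 gamma, 2 of 6 silicon + NR, 2 of 5 mock + NR and 4 of 7 mock libraries. Across all 37 libraries the 3 genes closest to Egf by Spearman's rho were Hrasls (0.961), Eno3 (0.960), the enolase of skeletal muscle, and Igdcc4 (0.958).

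Egf ran from 0.08 to 2.29 CPM in GCR libraries (median 0.69) and from 0.62 to 46.8 CPM in mock libraries (median 9.87). It ran from 1.95 to 57.3 CPM in silicon libraries (median 32.1), from 0.87 to 69.2 CPM in silicon + NR libraries (median 2.85) and from 0.827 to 78.9 CPM in mock + NR libraries (median 2.41). The log2 fold change was -4.29 (SE 1.23) for GCR and -3.06 (SE 1.29) for gamma against mock. Without the 13 muscle-rich libraries the sign turned round in both, to 0.30 (SE 0.64) for GCR and 1.58 (SE 0.68) for gamma. The 3 mock libraries left had 0.77, 0.87 and 0.62 CPM of Egf. Gamma libraries were at 0.94, 0.92, 3.69, 4.38 and 1.42 CPM, and replicates 3 and 4, the highest of these, are the 2 libraries with Nppa, a gene of atrial heart muscle, over 10000 CPM. The 7 markers of salivary gland, another tissue known for Egf, summed to 2.53 to 130 CPM per library, with Prol1 at 0 in every group. Smgc was also at 0 in silicon and mock + NR libraries, and Klk1b22 in these and in GCR libraries. The part of this tissue in the Egf values was not tested.

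**Figure D4:**
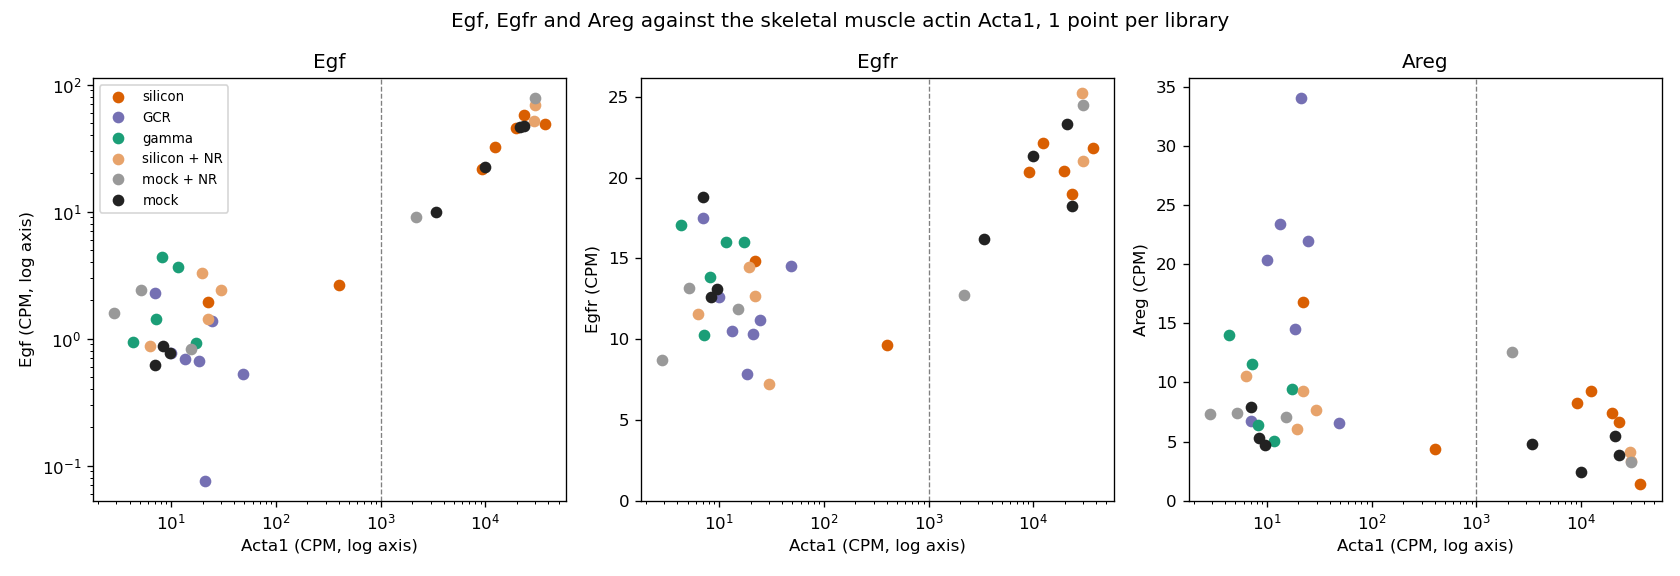
Egf (left, log axis), Egfr (middle) and Areg (right) in CPM against Acta1 on a log axis, with 1 point per library coloured by group and a dashed line at 1000 CPM of Acta1. Egf is at 9.12 CPM or more in each of the 13 libraries right of the line, and GCR and gamma have 0 libraries there.

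Egfr encodes the receptor shared by all 6 ligands and lies on chromosome 11 at 16752203 to 16918158 (plus strand). Its means were 18.3 ± 4.53 CPM in silicon, 12.1 ± 3.16 in GCR, 14.6 ± 2.70 in gamma, 15.4 ± 6.62 in silicon + NR, 14.2 ± 6.02 in mock + NR and 17.7 ± 3.98 in mock libraries. GCR libraries ran from 7.84 to 17.5 CPM and mock libraries from 12.6 to 23.3 CPM, and 5 of 7 GCR libraries lay below every mock library. The log2 fold change was -0.40 (SE 0.26). Egfr too was higher in the 13 muscle-rich libraries, at 20.5 ± 3.39 CPM against 12.8 ± 3.05 in the other 24, and without the 13 the GCR value was -0.07 (SE 0.24). In the same fit Areg stood at 1.91 (SE 0.53).

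Sex was not used in choosing the 8 genes, so it could be tested. Of the 8 genes 0 differed between females and males by edgeR's quasi-likelihood test with sex beside group (all at adjusted p = 1.00), where 0.0589% of all genes were called, and 0 of the 8 had an unadjusted p under 0.05, where 3.15% of all genes had. The largest of the 8 differences was for Btc, at -0.30 (SE 0.20) for females against males. DESeq2 and voom also called 0 of the 8, and 0.0707% and 0.0825% of all genes. The library of gamma replicate 5 is labelled female while its sex-linked genes go against that label, and it was kept under its label. Without that library 0 of the 8 genes were called between females and males as well.

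The Areg difference between GCR and mock is described by sex, without a p, because the contrast was in view when the genes were chosen. In males Areg averaged 26.5 ± 6.64 CPM in GCR (n = 3) and 4.21 ± 1.14 CPM in mock libraries (n = 5), at a log2 fold change of 2.97 (SE 0.50). In females it averaged 12.0 ± 6.67 CPM in GCR (n = 4) and 6.69 ± 1.70 CPM in mock libraries (n = 2), at 1.02 (SE 0.62). The difference of the effects, females minus males, was -1.95 (SE 0.76). Of all genes 0% were called for this difference in GCR, 0% in silicon and 0.0236% in gamma, and 0 of the 8 in each. At an unadjusted p under 0.05 in edgeR stood 1 of the 8 genes in GCR (2.07% of all genes), 0 in silicon (4.35%) and 0 in gamma (2.41%), from which nothing is read. For Btc the difference in GCR was -1.19 (SE 0.65) and for Errfi1 -1.03 (SE 0.78). With 2 female mock mice these values are imprecise.

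Within groups, several of the 8 genes varied together from mouse to mouse, by pairs. Log2 CPM was taken as the residual from group and sex, so that differences between groups play no part, and all 28 pairs were tested over 37 libraries by permutation, two-sided, with adjustment over the 28. Of the 21 pairs without Egf 9 were called, 8 of them positive. The share of pairs of other genes that this test would call was not measured, so nothing is read from this count. CPM was taken over library totals, and tissue content differed between libraries of the same group. Hbegf and Errfi1 had r = 0.79 and rho = 0.83 (permutation adjusted p = 9.33e-05 for each, from 1e-05, the smallest the permutations can give). Areg and Btc had r = 0.77 and rho = 0.76 (the same permutation adjusted p). Btc and Tgfa had r = 0.73 and rho = 0.60 (permutation adjusted p = 0.000168 and 0.000672). Areg and Errfi1 had r = 0.65 and rho = 0.65 (permutation adjusted p = 0.00014 for each).

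These 4 pairs, like all 8 called positive pairs without Egf, kept their sign in libraries without much muscle, and several pairs were weaker there. In the 24 libraries with Acta1 up to 1000 CPM r was 0.72 for Hbegf and Errfi1, 0.77 for Areg and Btc, 0.46 for Btc and Tgfa, and 0.54 for Areg and Errfi1. Areg and Hbegf had r = 0.40 over all libraries and 0.29 in the 24, and Btc and Errfi1 had 0.49 and 0.12. Likewise Areg and Tgfa had 0.55 and 0.28, and Tgfa and Errfi1 had 0.48 and 0.15. Hbegf and Btc were not called, at r = 0.34 (permutation adjusted p = 0.0632) and 0.20 in the 24. Without the 2 libraries farthest from the median of the first gene named, r was 0.79, 0.70, 0.67 and 0.64 for the 4 pairs in this order. Ereg was in 0 of the called pairs, and with Areg it had r = 0.07 and rho = 0.03 (permutation adjusted p = 0.72 and 0.87). Btc and Egfr were the called negative pair without Egf, at r = -0.46, which was -0.10 in the 24 libraries. The pairs with Egf mix separate kinds of library and are described within each kind. For Egf and Egfr r was 0.71 in the 13 muscle-rich libraries and 0.07 in the other 24. For Hbegf and Egf it was -0.95 in the 13 and -0.43 in the 24. Group and sex were refitted within the 13, which hold only 2 silicon + NR and 2 mock + NR libraries. The r values of the 13 thus rest on few libraries. The 2 of mock + NR, at 8.87 and 38.1 CPM of Hbegf and 78.9 and 9.12 CPM of Egf, are among those flagged below.

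**Figure D5:**
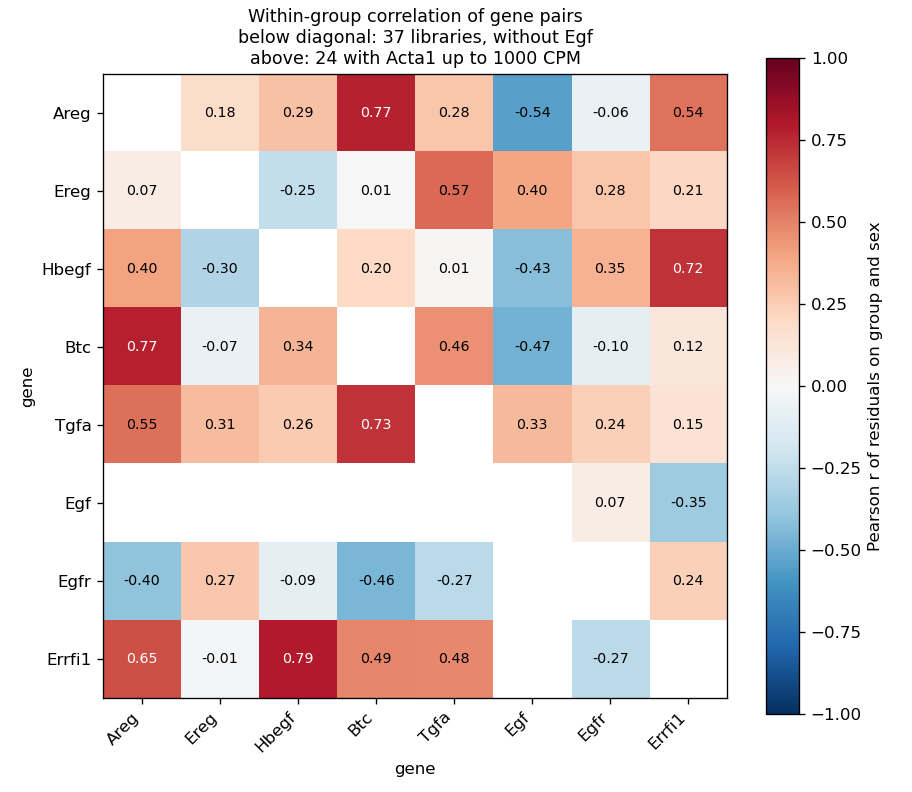
Pearson's r of each pair of the 8 genes, from log2 CPM after group and sex were taken out, in all 37 libraries (below the diagonal, without Egf) and in the 24 with Acta1 up to 1000 CPM (above it). Hbegf with Errfi1 and Areg with Btc stand at 0.72 or more on both sides, and Egf with Egfr is 0.07 above the diagonal.

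The genes most like Areg over the 37 libraries were Ptgs2 (Spearman's rho 0.881), Ffar4 (0.849), Irx2 (0.830), Crb3 (0.828), Ghrl (0.816), Il18r1 (0.788), Nkx2-1 (0.782) and Fosl2 (0.775). Ptgs2 encodes the inducible cyclooxygenase COX-2, which makes prostaglandins, Nkx2-1 a transcription factor of lung epithelium, and Fosl2 a subunit of AP-1. The highest rho was 0.760 for Ereg (Actg2, an actin of smooth muscle; then Tmem213 and Krt17), 0.867 for Btc (Ttc36; then Shh and 4930502A04Rik) and 0.909 for Tgfa (Tmem50b; then Nedd4l and Eogt). It was 0.886 for Egfr (Lmna; then Plec and Tarsl2) and 0.904 for Errfi1 (Rhob; then Pvr and Gm15910). These values are descriptions of likeness over the same libraries, whose group, tissue content and depth all genes share.

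Other genes of the pathway were taken from 6 lists of 81 genes, of which 78 passed the count filter. These lists were made with earlier results of these data known, so their calls between groups are given as descriptions. For GCR against mock 9 of the 78 were called by edgeR (11.5%), 6 upward and 3 downward, below the 16.6% of all genes. The median log2 fold change was -0.01 over the 78 and -0.06 over all genes. Of the 23 tested genes of the list of ERK feedback and target genes, 4 rose and 0 fell, with a median of 0.33. Over all genes 16.6% were called, 1364 upward and 1447 downward, and nothing is read from the count of this list. Ptgs2 rose by 1.87 (SE 0.38), to 22.8 ± 11.2 CPM in GCR against 7.49 ± 3.29 CPM in mock libraries (SD, n = 7 each). Spry2, the gene of an inhibitor of receptor tyrosine kinase signalling, rose by 1.22 (SE 0.25), to 29.8 ± 10.4 CPM in GCR against 15.7 ± 3.53 CPM in mock libraries. The receptor kinase gene Epha2 rose by 0.96 (SE 0.28) and Phlda1 by 0.83 (SE 0.29).

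Among 24 adaptor and ERK cascade genes 2 rose and 2 fell, where 16.6% of all genes were called. Nothing is read from the counts of single lists. The edgeR log2 fold change of Mapk3, the gene of ERK1, was 1.09 (SE 0.26). That of Sos1, an exchange factor that activates RAS, was 0.58 (SE 0.15). Map2k1, the gene of the kinase MEK1 that activates ERK, fell by 0.72 (SE 0.20) and the kinase gene Akt1 by 0.82 (SE 0.26). Of 10 shedding and trafficking genes the metalloprotease gene Adam9 fell by 0.86 (SE 0.21) and 0 rose. Of 15 further negative regulators, 3 partner receptors and 3 other ligands tested, 0 were called. Epgn, the remaining EGFR ligand gene, did not pass the count filter and was at 0 to 0.22 CPM. None of the 9 calls was made without the muscle-rich libraries, without those high in Rn45s, or with the covariates. Ptgs2 then stood at 1.502 (SE 0.48), 1.93 (SE 0.43) and 1.76 (SE 0.47), and Mapk3 at 0.87 (SE 0.32), 0.75 (SE 0.28) and 0.12 (SE 0.22).

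In the other comparisons of groups 0 of the 78 pathway genes were called by edgeR. At an unadjusted p under 0.05 stood 11 in silicon against mock (12.9% of all genes), 6 in gamma against mock (10%), 0 in silicon + NR against mock + NR (2.16%), 16 in mock + NR against mock (16.9%) and 9 in silicon + NR against silicon (12.8%), so these counts give no result about the list. Among the genes of smallest p were Timp3 and Ier3 in silicon (-0.98 and -0.80; SE 0.28 and 0.30) and Ptgs2, Etv1 and Dusp5 in gamma (1.198, 0.60 and 1.72; SE 0.40, 0.23 and 0.66). Timp3, which encodes an inhibitor of ADAM17, was also first in mock + NR against mock, at -1.16 (SE 0.31), followed by the ERK-induced Etv5 and Dusp6 (-1.09 and -0.54; SE 0.35 and 0.21). They were Nrg2, Dusp6 and Sos2 in silicon + NR against mock + NR (0.56, 0.37 and 0.28; SE 0.30, 0.22 and 0.20). In silicon + NR against silicon they were Adam17, Grb2 and Sh3kbp1 (-0.46, -0.45 and -1.19; SE 0.13, 0.14 and 0.38). Between females and males 0 of the 78 were called and 1 had an unadjusted p under 0.05 (3.15% of all genes). Il11, Eps8 and Dusp4 came first there (-0.62, 0.25 and -0.57; SE 0.27, 0.13 and 0.32).

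Immediate early genes, which ERK and other kinases switch on, were listed with their rise in these libraries already known, so their direction is not independent evidence. Of 16 in the list used, 9 rose in GCR and 1 in gamma against mock, with medians of 0.93 and 0.91 on the log2 scale, and 0 fell. The shares of all genes called were 16.6% in GCR and 0.0295% in gamma. Egr1 averaged 89.7 ± 43.0 CPM in GCR, 146 ± 88.5 in gamma and 23.1 ± 7.57 in mock libraries. Fosl2 stood at 1.03 (SE 0.20) in GCR against mock and at 0.34 (SE 0.21) in gamma. Single gamma libraries had 104, 59.3, 219.5, 261 and 87.9 CPM of Egr1, and the highest 2 are those with Nppa over 10000 CPM, whose part in this was not tested.

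Markers of cells known to make amphiregulin were measured in the same libraries. The club cell markers summed to 194860 ± 64852 CPM in GCR and 122597 ± 35724 CPM in mock libraries. In the other groups they summed to 124587 ± 68700 CPM in silicon, 169643 ± 88380 in gamma, 188573 ± 62557 in silicon + NR and 232312 ± 82407 in mock + NR libraries. The markers of type 2 innate lymphoid cells, immune cells known for Areg, summed to 86.4 ± 18.3 CPM in GCR and 103.9 ± 12.9 CPM in mock libraries, and those of mast cells and basophils to 233 ± 36.3 and 161 ± 62.2 CPM in the same groups. The part of these cells in the Areg values was not tested.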

How the data were processed

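Whole-lung RNA of 37 mice was sequenced after SMART-seq v4 amplification and Nextera XT library preparation, per the labels' protocols, without molecular identifiers, so intervals and floors cover counting error only. The authors deposited a table of raw counts per gene symbol; per the submitters' processing notes the tools included the aligner STAR 2.5.2, the counter HTSeq 0.13.5 and the trimmer Trimmomatic 0.36, with mm10. CPM was computed from these deposited counts over each library's total. Genes were filtered by edgeR's filterByExpr, normalized by TMM and fitted over all 37 libraries with group and sex, and tested by edgeR 4.0.16 quasi-likelihood (R 4.3.3, prior count 2) with Benjamini-Hochberg adjustment over 16977 genes at 0.05. The test was checked on simulated data. Alternatives used DESeq2 1.42.0, voom in limma 3.58.1, other scaling and filters, left-out libraries and covariates. Pair correlations used 100000 permutations (scipy 1.17.1). Gene positions are from GENCODE M21 and promoters from RefSeq on GRCm38.p6; Ereg and Hbegf are named only. Replicates are separate mice, numbered in accession order, and no same-group pair of libraries agreed within sampling noise. The members and the gene lists were chosen with earlier results of these data known. Genes named outside the 8 are the pathway genes called in GCR, the 3 of smallest p per comparison (of which 1 is not reported here), the 8 most like Areg and the 3 most like each other member. Egr1 and Fosl2 of the immediate early list were named with their values known.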

Additional observations from a re-analysis of the deposited data

Results flagged for a closer look

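Of 48 pairs of gene and group examined, 3 held a library far from the others of its group, where chance flags about 1 in 20. Hbegf was 38.1 CPM in mock + NR replicate 5, the only female of that group, and 8.87 to 16.0 CPM in the other 4 libraries. Egf was 78.9 CPM and Egfr 24.5 CPM in mock + NR replicate 2, against 0.83 to 9.12 CPM and 8.69 to 13.2 CPM in the others. Acta1 was 29653 CPM in replicate 2, 2195 CPM in replicate 5 and at most 15.3 CPM in the other 3.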

How the results depend on the processing

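Over the alternatives, member fold changes called in the main fit changed sign in 3 cases. Otherwise 2654 values lay within 1 SE of the main value and 71 did not, and the cause was not tested. Most alternatives leave out 1 library, often of neither group compared, and could move little, so these counts do not measure stability. Sign changes of members not called in the main fit are not counted among the 3. Egf in gamma against mock kept its sign in 46 of 49 alternatives, and Errfi1 in silicon + NR against silicon in 37 of 49. With single libraries left out Egf in gamma ran from -3.46 to -2.45, and in the other alternatives from -4.12 to 1.58. Egf in GCR against mock reversed to 0.30 without the libraries high in Acta1, 0.43 without those high in Acta1 or Rn45s and 0.12 with covariates. Areg in GCR against mock was 1.475 with covariates, and 1.85 to 2.32 with single libraries left out. Etv1 in gamma reversed to -0.087 by voom and -0.20 without the libraries high in Nppa. The r of Tgfa and Egf, which mixes kinds of library, reversed to 0.33 without the libraries high in Acta1 and 0.29 with covariates, and that of Egf and Egfr to -0.18 with covariates. Members called in GCR against mock were 1 by voom and 0 without libraries high in Acta1, in Rn45s or in either, or with covariates, and 1 to 3 with single libraries left out (1 without GCR replicate 2 or mock replicate 6, 3 without GCR replicate 4 or mock + NR replicate 5). Elsewhere 1 member was called in silicon against mock without either kind of library, 2 in silicon + NR against silicon by voom, and 1 (Hbegf) in mock + NR against mock by DESeq2, voom, without libraries high in Acta1 or in either, and with covariates, with 0 to 1 on leaving single libraries out (1 without mock replicate 6). Pathway genes called in GCR were 15 by DESeq2, 5 with only the groups compared, 0 in the same 4 settings as the members, and 3 (without GCR replicate 2) to 17 (without GCR replicate 4) with single libraries left out, where all genes called ran from 501 to 4087. In silicon they were 1 by DESeq2, 3 without libraries high in Acta1 and 6 without either kind, in gamma 1 by voom and 2 with covariates, in mock + NR 2 by DESeq2, 3 by voom, 5, 7 and 3 without libraries high in Acta1, without either and with covariates, and in silicon + NR against silicon 15 by voom and 1 without libraries high in Acta1. With single libraries left out they ran from 0 to 1 in silicon and in mock + NR against mock, and from 0 to 3 in silicon + NR against silicon. No paired analysis was possible because replicates were numbered by accession and the numbers pair no mice. Depth limits Ereg, with a median of 16 counts per library.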
